A study of Mus musculus with 4 samples.

Results

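Tetraspanins are small proteins that cross the membrane 4 times, and their genes are followed here in RNA from purified migrasomes and from cytosol of mouse origin. The genes were chosen by name from the deposited table. They were every symbol made of Tspan and a number, together with Cd9, Cd37, Cd53, Cd63, Cd81, Cd82 and Cd151. This gave 28 genes of the 49568 in the table, of which 14 were tested because their normalised read count was 10 or more in 2 or more of the 4 libraries. All 14 reached 10 in every library, so no tetraspanin gene entered the test through 1 fraction alone. Of the other 14, 5 had no read in any library, 5 had at most 3 reads in every library, and 4 had up to 8 reads in a library.

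The groups were migrasome (purified migrasomes, replicates 1 and 2) and cytosol (replicates 1 and 2). Genotype, treatment, age, cell type and the way in which the fractions were prepared are not stated in the labels. Recovered reads per library numbered 5228713 and 5171092 in migrasome and 7529136 and 8608369 in cytosol. Of the fixed marker lists, the fibroblast list had summed values of 73050 and 59289 in migrasome and 53827 and 49359 in cytosol, with Lum at 0 in every library and Dcn at 4.24 or lower. Most of each sum came from Vim (33076 and 26052 in migrasome, 16385 and 14221 in cytosol) and S100a4 (37523 and 29912, 22885 and 24440). Of the list's 8 tested genes 5 (Col1a1, Col1a2, Col3a1, Pdgfra, Pdgfrb) passed as lower and 1 (Vim) as higher in migrasome (limma adjusted p under 0.05). S100a4 and Thy1 did not pass. The blood cell list gave 15.6 and 10.5 in migrasome, against 12.4 and 19.9 in cytosol, with Cd3e and Cd52 among its genes at 0. Most of each sum came from Lyz2 (9.90 and 6.58 in migrasome, 11.6 and 17.1 in cytosol), which was tested and did not pass. The epithelial list gave 14.1 and 15.8 in migrasome, against 4.65 and 7.54 in cytosol, with Krt5, Krt18, Cldn4 and Cldn7 at 0. Krt14 made up most of it (11.3 and 13.2 in migrasome, 4.65 and 6.86 in cytosol). The endothelial list summed to at most 7.90 in a library, with none of its 6 genes at 0 in all 4. The labels do not say that the replicates came from separate cultures, so the spread behind each p-value is that between these libraries and may be technical. Each value is relative to the other RNA of its library, so the amount of RNA per cell or per migrasome is not known. If the source held several cell types, fewer cells of a type and less RNA per cell cannot be told apart.

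A tetraspanin has short tails in the cytosol and a large loop outside the cell, and the loop carries a Cys-Cys-Gly signature. Tetraspanins bind each other and partner proteins, such as integrins and the protease Adam10, in patches of membrane called tetraspanin-enriched microdomains. Such patches swell into migrasomes, the vesicles that form on the retraction fibres of migrating cells, and Tspan4 protein is the standard marker of these vesicles. The mRNAs are translated at the endoplasmic reticulum, where the membrane spans are inserted.

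The signature could be read in the coding sequences. Codons for Cys-Cys-Gly (TGC or TGT, again TGC or TGT, then GGN, in frame on the coding strand) were present in 27 of the 27 tetraspanin genes found in the GENCODE M21 annotation of GRCm38, and in 2.56% of 21526 genes with a complete coding transcript. Tspan16 was not found there. The stretches below run from 30 bases before the signature to 30 bases after it, at the first match past base 300 of the coding sequence, with the signature in capitals. They are shown because they hold the feature that the family shares. The first 4 belong to genes that were lower in migrasome, and the last 3 to genes that did not pass the test.
Tspan4: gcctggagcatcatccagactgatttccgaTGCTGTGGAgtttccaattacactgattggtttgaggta
Tspan9: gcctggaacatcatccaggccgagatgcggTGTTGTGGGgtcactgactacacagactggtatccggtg
Cd63: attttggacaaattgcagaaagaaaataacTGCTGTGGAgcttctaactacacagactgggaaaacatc
Cd81: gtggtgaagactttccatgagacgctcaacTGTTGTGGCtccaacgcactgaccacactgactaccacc
Tspan5: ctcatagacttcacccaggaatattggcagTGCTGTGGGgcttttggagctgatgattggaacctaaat
Tspan17: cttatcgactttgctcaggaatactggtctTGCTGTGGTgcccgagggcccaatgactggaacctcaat
Tspan7: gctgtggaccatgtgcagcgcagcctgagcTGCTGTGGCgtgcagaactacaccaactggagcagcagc

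Over these 69 bases, Tspan4 and Tspan9 shared 49 bases at the same place, and so did Tspan5 and Tspan17, which belong to the TspanC8 subgroup of Adam10 partners. The other pairs shared between 22 (Cd81 with Tspan4, and Cd81 with Tspan5) and 40 (Tspan7 with Cd63). The complete coding sequences of the 27 genes were 615 to 999 bases long.

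Most of the tetraspanin mRNAs that were measurable were scarcer in migrasomes than in cytosol. Of the 14 tested, 9 fell and none rose, while 5 did not pass (limma, Benjamini-Hochberg adjusted p under 0.05 over all 10860 tested genes). Among all tested genes 17.7% fell and 8.68% rose, against 64.3% falling among the tetraspanins. At an unadjusted p under 0.05, 1 tetraspanin gene was higher in migrasome, and edgeR and DESeq2 on the recovered reads also called 9 lower and 0 higher. The median difference, taken as migrasome minus cytosol of log2(value + 1), was -1.66 for the 14 genes and -0.0043 for all tested genes. The 9 genes that fell did so by 1.16 to 2.03 on that scale, which understates the change of low genes. With quantile normalization 8 fell and 1 rose. Over all tested genes the counts were 1919 lower and 943 higher. They rose without migrasome replicate 2, dropped without either cytosol replicate, and changed little without migrasome replicate 1. Each of those fits takes its spread from the fraction that kept both libraries.

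The tetraspanins used as markers of extracellular vesicles are Cd63, Cd81, Cd82, Cd151, Cd9, Cd37 and Cd53, and the first 4 were tested and fell. Cd63, a tetraspanin of late endosomes, lysosomes and exosomes (chr10:128900989-128912822, plus strand, GRCm38), gave 599.6 and 517 in migrasome replicates 1 and 2, against 2284 and 1992 in cytosol replicates 1 and 2. Both migrasome libraries lay far below both cytosol libraries, and the log2 difference was -1.94 ± 0.20 (SE, limma adjusted p = 0.000536). The table also lists a pseudogene, Cd63-ps, at 5.66 and 1.32 in migrasome and 10.1 and 6.86 in cytosol, which can share reads with Cd63. Cd81, a widely expressed tetraspanin of the cell surface and of exosomes (chr7:143052739-143067934, plus strand), gave 225 and 230.3 in migrasome, against 961 and 823 in cytosol. Its log2 difference was -1.96 ± 0.20 (limma adjusted p = 0.000536), and the groups did not overlap.

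Cd151, a partner of the laminin-binding integrins (chr7:141467392-141471473, plus strand), gave 129 and 165 in migrasome, against 557 and 599 in cytosol, a log2 difference of -1.98 ± 0.22 (limma adjusted p = 0.000546). Its mean level was 3.94 times as high in cytosol, close to the ratios of Cd63 (3.83) and Cd81 (3.92). Cd82, known as a suppressor of metastasis (chr2:93419111-93463140, minus strand), was less abundant, at 21.2 and 14.5 in migrasome against 62.8 and 46.6 in cytosol. It rested on 15 and 11 reads in migrasome and 81 and 68 reads in cytosol, and fell by 1.57 ± 0.37 (limma adjusted p = 0.0130). Its call was lost with quantile normalization (adjusted p = 0.0525) and without cytosol replicate 1 (0.146), in a range of 0.000137 to 0.146 over the alternatives.

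Cd9, needed on the mouse egg for fusion with sperm and otherwise a common exosome marker, was hardly seen. It had 4 and 2 reads in migrasome and 0 and 4 reads in cytosol. Cd53, a leukocyte tetraspanin, had 3 and 1 reads in migrasome and 4 and 5 reads in cytosol, and Cd37, known from B cells, had 1 read in all. The low levels of Cd53 and Cd37 went with those of the blood cell markers given above, other than Lyz2. Tspan32, also known from blood cells, did not, with values of 68.4 to 98.8 over the libraries.

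Tspan4, the migrasome marker (chr7:141475240-141493427, plus strand), gave 252 and 279 in migrasome replicates 1 and 2 and 862 and 915 in cytosol replicates 1 and 2, from 178 and 212 reads and from 1111 and 1334 reads. The libraries of each fraction stayed close to each other and the fractions did not overlap. The mRNA that encodes the marker protein was thus 3.35 times as abundant in cytosol, with a log2 difference of -1.74 ± 0.20 (limma adjusted p = 0.000555). Its exons share 292 bases, or 13.4% of their length, with Chid1 on the opposite strand, whose values were 119 and 167 in migrasome and 305 and 339.5 in cytosol. The labels do not say whether strand was used in counting, so reads from the shared bases cannot be told apart.

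Tspan9, the close relative of Tspan4 and a tetraspanin of platelets (chr6:127961396-128143594, minus strand), gave 260.2 and 303 in migrasome, against 538 and 738 in cytosol. The groups did not overlap, and the log2 difference was -1.16 ± 0.23 (limma adjusted p = 0.00588). Without cytosol replicate 2 the call was lost (difference -0.94, adjusted p = 0.0661, in a range of 1.5e-06 to 0.0661 over the alternatives). Whether Tspan9 and Tspan4 differ in their fall was not tested.

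**Figure D1:**
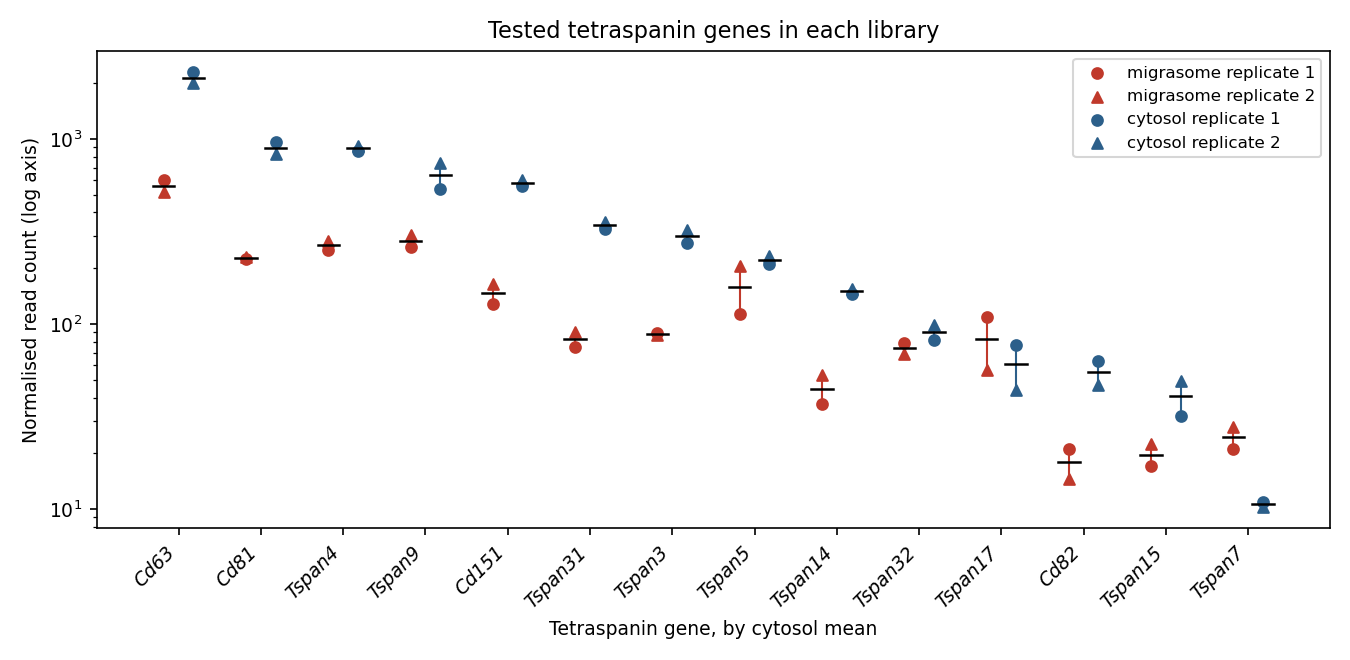
Normalised read count (log axis) of the 14 tested tetraspanin genes in each library, with migrasome in red and cytosol in blue, circles for replicate 1, triangles for replicate 2 and a black bar for the mean. The red points of Cd63, Cd81, Tspan4, Tspan9, Cd151, Tspan31, Tspan3, Tspan14 and Cd82 lie below the blue ones. So do those of Tspan5, Tspan32 and Tspan15, which did not pass the test. The red points of Tspan17 overlap the blue ones, and those of Tspan7 lie above.

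Tspan31, Cd151, Cd81 and Cd63 had log2 differences within 1 SE of each other, and their order changed with the settings (with quantile normalization -1.78 for Tspan31 and -2.15 for Cd63). Tspan31, first found amplified in human sarcomas (chr10:127067280-127070264, minus strand), gave 75.0 and 90.8 in migrasome, against 327 and 356 in cytosol. Its log2 difference was -2.03 ± 0.23 (limma adjusted p = 0.00055), with the migrasome libraries below the cytosol libraries. Its exons share 641 bases, 29.2% of their length, with Cdk4 on the opposite strand, which gave 2547 and 2982 in migrasome, against 1945 and 2249 in cytosol and did not pass (log2 difference 0.40, limma adjusted p = 0.177). Tspan3, a binding partner of claudin in oligodendrocytes (chr9:56131725-56165477, minus strand), gave 89.1 and 86.9 in migrasome, against 273 and 323 in cytosol. It fell by 1.74 ± 0.23 (limma adjusted p = 0.000820), and its migrasome libraries were, by ratio, the closest to each other of any tested tetraspanin after those of Cd81.

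The TspanC8 subgroup holds Tspan5, Tspan10, Tspan14, Tspan15, Tspan17 and Tspan33, which bring the protease Adam10 out of the endoplasmic reticulum and steer its choice of substrate. Of its 6 genes 4 were tested, 1 fell and 3 missed the threshold, at a median log2 difference of -0.76. That is 25% of 4 genes, near the 17.7% of all tested genes that fell, and the count is no result about the subgroup. Tspan14 (chr14:40906445-40966807, minus strand) was the one that fell, with 36.8 and 52.6 in migrasome and 145 and 154 in cytosol, a log2 difference of -1.74 ± 0.28 (limma adjusted p = 0.00208).

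Tspan5 (chr3:138742195-138907905, plus strand) gave 113 and 205 in migrasome, against 209 and 233 in cytosol. Migrasome replicate 2 came close to cytosol replicate 1 and migrasome replicate 1 did not, and the gene did not pass (log2 difference -0.53 ± 0.29, limma adjusted p = 0.198). Without migrasome replicate 2 it did pass (-0.96, adjusted p = 0.00616), and without migrasome replicate 1 the difference was -0.10 (adjusted p = 0.774, the highest over the alternatives).

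Tspan17 (chr13:54789377-54796776, plus strand) gave 109 and 56.6 in migrasome, against 76.8 and 43.9 in cytosol. It was the one tested tetraspanin gene whose groups overlapped, and in both fractions replicate 1 was the higher library. Its log2 difference was 0.43 ± 0.39 (limma adjusted p = 0.418), and it was -0.037 without migrasome replicate 1 and 0.89 without migrasome replicate 2, where it passed (adjusted p = 0.0496, in a range up to 0.972). Tspan15 (chr10:62185396-62231251, minus strand) gave 17.0 and 22.4 in migrasome, against 31.8 and 49.4 in cytosol, without overlap and without passing (-0.99 ± 0.38, limma adjusted p = 0.0796). Among other settings, Tspan15 passed with every library scaled to the same total (adjusted p = 0.0491) and without migrasome replicate 2 (0.0260, in a range up to 0.513).

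Tspan32, known from blood cells (chr7:143005046-143019644, plus strand), gave 79.2 and 68.4 in migrasome, against 82.2 and 98.8 in cytosol. The groups were next to each other without overlap, and the gene did not pass (log2 difference -0.29 ± 0.27, limma adjusted p = 0.435). Its neighbour Cd81 begins 33094 bases further along the chromosome and fell by 1.96. Cd151 and Tspan4 are also neighbours, 3766 bases apart, and both fell. Tspan11, 7418 bases from Tspan9, had no read.

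Tspan7, a tetraspanin of neurons linked to X-linked intellectual disability in humans (chrX:10485158-10596605, plus strand), was the one tested tetraspanin whose migrasome libraries both exceeded the cytosol libraries. It gave 21.2 and 27.6 in migrasome, against 10.9 and 10.3 in cytosol. These values came from 15 and 21 reads in migrasome and 14 and 15 reads in cytosol, and the difference of 1.12 ± 0.42 did not pass (limma adjusted p = 0.0704). Among other settings, it passed with quantile normalization (adjusted p = 0.0352), without a variance trend (0.0236) and without migrasome replicate 1 (0.0489), in a range up to 0.304. Neural markers were set beside it. Of the 8 on that list 6 were tested, and 2 of them (Map2 and Snap25) passed as higher, where 8.68% of all tested genes did. The other 4 did not pass. All 6 were low, with cytosol means of 7.79 to 21.0. Among low markers of other lists, Krt14 and Thy1 differed by 0.99 and 1.03 and Lyz2 by -0.74, none of them passing. The list's summed value was 154 and 137 in migrasome and 73.7 and 74.8 in cytosol, no gene of it was at 0 in every library, and its part in the Tspan7 values was not tested.

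**Figure D2:**
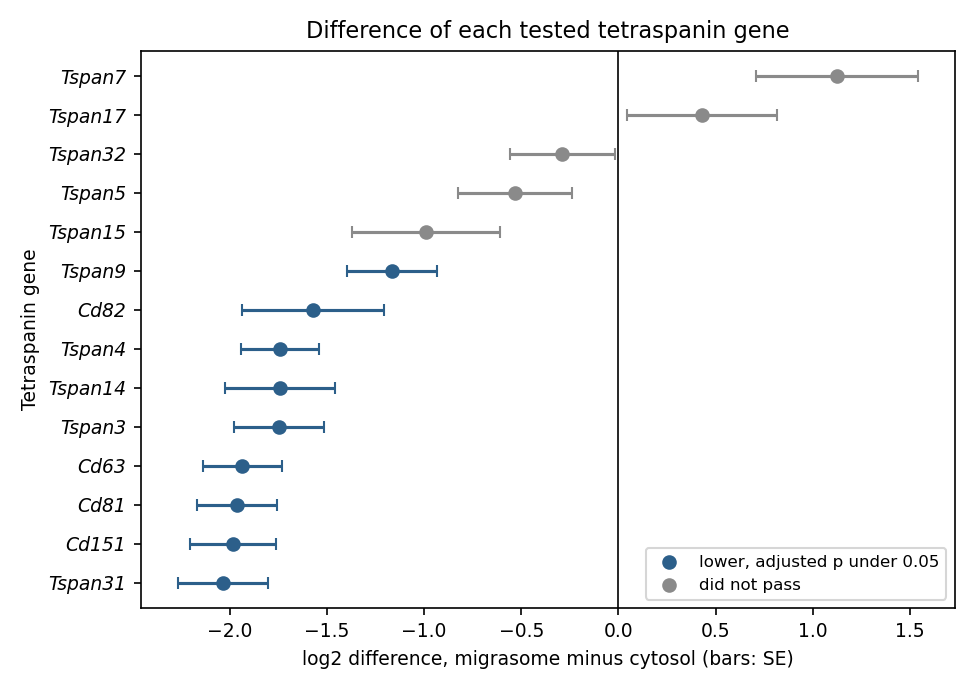
Log2 difference, migrasome minus cytosol, of each tested tetraspanin gene, with bars of 1 SE from limma; blue marks the 9 genes that passed as lower and grey the 5 that did not pass. The values run from 1.12 for Tspan7 down to -2.03 for Tspan31, with 9 genes at -1.16 or below.

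Overlap of the groups was counted as well. Both migrasome libraries lay below both cytosol libraries for 12 of the 14 genes and above them for 1, where 36.3% and 33.3% of all tested genes did so. An exact permutation test of 2 libraries against 2 for a single gene has 0.33 as its smallest p, and each call therefore draws on the spread that limma pools over genes.

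The summed value of all 28 tetraspanin genes was 2061 and 2144 in migrasome replicates 1 and 2 and 6436 and 6395 in cytosol replicates 1 and 2. The sum was 2102 ± 59.0 in migrasome and 6415 ± 28.7 in cytosol (SD, n = 2 each), a ratio of 3.05 in favour of cytosol with an exact two-sided permutation p = 0.33, the smallest that this design allows. As a share of reads the family held 0.0297% ± 0.00257 in migrasome and 0.109% ± 0.00132 in cytosol. Cd63 and a few other abundant genes dominate these sums.

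Levels of different tetraspanins were compared per kilobase of exon, with all exons annotated for a gene in GENCODE M21 merged. The 1 coding transcript picked per gene can be much shorter (1063 against 3682 bases for Cd63, 1405 against 4975 for Tspan9). For Tspan17 it is nearly as long (1585 against 1657 bases). The order and the shares below therefore depend on the length used. Cd63 led in both fractions, at 163 and 140 per kilobase in migrasome and 620 and 541 in cytosol. Tspan4 came second, at 116 and 128 per kilobase in migrasome and 396 and 420 in cytosol, followed by Cd81 at 78.1 and 80.0 in migrasome and 334 and 286 in cytosol. By merged exon length, these 3 did not overlap one another in either fraction. Below them, in migrasome, Tspan9 (52.3 and 60.8 per kilobase), Cd151 (47.0 and 60.0) and Tspan17 (65.7 and 34.2) overlapped and could not be ordered, and Tspan31 (34.2 and 41.4) overlapped Tspan17. In cytosol the next were Cd151 (203 and 219 per kilobase), Tspan31 (149 and 162) and Tspan9 (108 and 148).

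The make-up of the family in each fraction follows from these levels and depends on the same merged exon lengths. Cd63, Tspan4 and Cd81 together held 55.7% ± 1.19 of the per-kilobase value of the 14 genes in migrasome and 64.1% ± 2.78 in cytosol (SD, n = 2 each). The share of Tspan4 itself was 19.2% ± 1.29 in migrasome and 20.1% ± 1.10 in cytosol, a gap smaller than the spread between replicates. Tspan17 held 7.90% ± 3.57 in migrasome and 1.79% ± 0.671 in cytosol, and Tspan5 3.40% ± 1.38 in migrasome and 1.48% ± 0.128 in cytosol. Shares of a whole depend on each other, and none of these differences was tested.

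**Figure D3:**
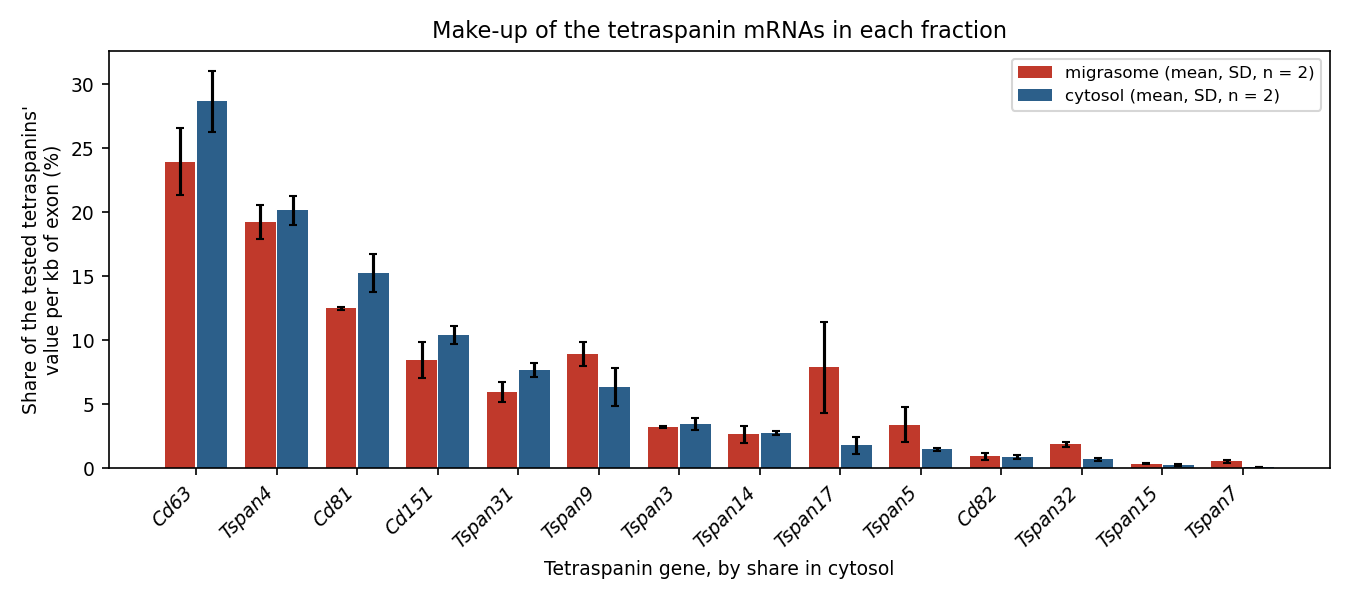
Share (%) of the summed per-kilobase value of the 14 tested tetraspanin genes held by each gene, with all annotated exons of a gene merged. Columns are means of 2 libraries with SD bars, migrasome in red and cytosol in blue. Shares depend on the lengths used. Cd63 (24.0% in migrasome, 28.7% in cytosol) and Tspan4 (19.2% in migrasome, 20.1% in cytosol) hold the largest shares in both fractions, and Tspan17 holds 7.90% in migrasome and 1.79% in cytosol.

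Length and base composition were set beside the calls. The 9 that fell had exon lengths of 2178 to 4975 bases (median 2879) and a transcript GC content of 49.9% to 58.1% (median 53.7%). The 5 that did not pass had exon lengths of 1657 to 8183 bases (median 7067) and a GC content of 48.5% to 59.6% (median 51.2%). Across the 14 genes Spearman's rho with the log2 difference was 0.44 for exon length, -0.033 for GC content and -0.69 for the mean cytosol value. The last of these shares the cytosol values with the difference itself, and the 14 genes come from the same 4 libraries.

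Tetraspanin genes that were not expressed, or nearly so, covered several tissue-restricted members. No read was seen for Tspan1, Tspan10, Tspan11, Tspan16 and Tspan33 in any library, which allows up to 3 reads each, or values up to 4.24 and 3.95 in migrasome replicates 1 and 2 and 2.33 and 2.06 in cytosol replicates 1 and 2. That limit covers counting error only. Tspan1 is known from epithelia, Tspan10 from pigmented cells of the eye and Tspan33 from red cell precursors.

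Cd37, Tspan6, Tspan8, Tspan12 and Tspan18 had at most 3 reads in every library. Tspan12, which acts with the Norrin receptor in retinal vessels, had 2 reads, both in migrasome replicate 1. Tspan8, a tetraspanin of gut epithelium, had 1 read in each replicate 1, and Tspan6 had 1 and 2 reads in migrasome and 3 and 0 in cytosol. Tspan18, of endothelial cells, had 3 reads in migrasome replicate 1 and 1 in cytosol replicate 1. At this depth no difference could be seen for these genes.

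Cd9, Cd53, Tspan2 and Tspan13 had more than 3 reads in a library but were not tested. Tspan13 came closest, with values of 11.3 and 9.21 in migrasome and 5.43 and 2.74 in cytosol, from 8 and 7 reads in migrasome and 7 and 4 reads in cytosol. Tspan2, known from oligodendrocytes, had 2 and 7 reads in migrasome and 3 and 4 reads in cytosol. The 14 untested genes together had 24 and 19 reads in migrasome and 19 and 18 in cytosol. After normalisation 1 read counts as 1.41 and 1.32 in migrasome and 0.776 and 0.686 in cytosol. Similar reads thus stand for a higher normalised sum in migrasome, which was not tested. Of the superfamily genes outside the naming scheme, Upk1b of the urothelium and Prph2 of photoreceptors had no read. Upk1a gave 4.24 and 19.7 in migrasome, against 6.21 and 10.3 in cytosol, and Rom1 gave 15.6 and 2.63 in migrasome, against 6.98 and 13.7 in cytosol. Both were tested and did not pass, with overlapping groups.

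Most measurable mRNAs of membrane proteins that tetraspanins bind were lower in migrasome. Of the 21 listed partners 14 were tested, and 12 of these fell, none rose and the other 2 missed the threshold, at a median log2 difference of -1.75. The share lower was 85.7%, beside 17.7% of all tested genes. Ptgfrn and Igsf8, immunoglobulin-domain proteins bound directly by Cd9 and Cd81, averaged 1002 and 39.5 in migrasome and 2953 and 153 in cytosol, with log2 differences of -1.56 ± 0.22 and -1.91 ± 0.29. Adam10, the client of the TspanC8 proteins, gave 180 and 228 in migrasome, against 633 and 398 in cytosol and fell by 1.31 ± 0.26 (limma adjusted p = 0.00673). Itga6, an integrin chain that joins Cd151, gave 105 and 138 in migrasome, against 428 and 416 in cytosol and fell by 1.80 ± 0.23. Itga3, another chain that joins Cd151, gave 45.3 and 25.0 in migrasome, against 55.1 and 20.6 in cytosol, with overlapping groups and no call. Itga7 also missed the threshold, at 18.4 and 14.5 in migrasome and 44.2 and 24.0 in cytosol (-0.96 ± 0.42, limma adjusted p = 0.112).

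Partners that work in the cytosol gave other counts. All 12 were tested, and 5 rose while none fell and 7 missed the threshold, at a median log2 difference of 0.61. Over all tested genes 8.68% rose and 17.7% fell. Both partner lists were chosen with earlier results of these data known, so their counts only describe the listed genes. Sdcbp, which encodes syntenin and binds the tail of Cd63, gave 3414 and 2556 in migrasome, against 1635 and 1697 in cytosol, a rise of 0.83 ± 0.22 (limma adjusted p = 0.0218). Of the ezrin, radixin and moesin genes, whose proteins tie the membrane to actin, Ezr (0.67 ± 0.20) and Msn (1.17 ± 0.29) rose, and Rdx averaged 2530 in migrasome and 1592 in cytosol and did not pass (limma adjusted p = 0.0549). Prkcb, a protein kinase C that binds tetraspanin complexes, and the ubiquitin ligase gene Nedd4 also rose, by 1.68 ± 0.28 and 1.06 ± 0.24. Prkca, also a protein kinase C, averaged 820 in migrasome and 692 in cytosol and did not pass (0.24 ± 0.19). Pi4k2a (-0.69), Gipc1 (0.017), Ap3m1 (0.20), Rac1 (0.34) and Ap2m1 (0.56) did not pass either. With every library scaled to the same total the counts were 3 higher and 1 lower, where 322 of the 10860 tested genes were higher and 2522 lower. With quantile normalization they were 2 higher and none lower, where 1115 of all tested genes were higher and 1403 lower.

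Other families of proteins with 4 membrane spans were counted in the same way. Of 99 genes in 8 families (claudins, connexins, the Cmtm and Marveld group, synaptogyrins and synaptophysins, Emp and Pmp22, Tm4sf, Lhfp and Ms4a) 21 were tested, 15 fell, 2 rose and 4 missed the threshold, at a median log2 difference of -1.12. As a share this is 71.4% lower, beside 64.3% among the tetraspanins, and a fall particular to tetraspanins is not shown. The most abundant tested gene of each family is named. Of these, Gja1, a connexin gene of gap junctions (-2.20), Syngr2 (-2.04), Emp1 (-1.88), Tm4sf1 (-1.16) and Lhfp (-1.09) fell. Cldn12, the most abundant claudin gene, averaged 781 in migrasome and 1378 in cytosol and did not pass. The 2 that rose were Cmtm4 (1.97 ± 0.35), the most abundant of its group, and Lhfpl4 (1.87 ± 0.25), and no Ms4a gene had a read.

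Of 9 mRNAs of other migrasome proteins all were tested, 5 fell and 4 did not pass, with a median of -1.17. The share lower was 55.6%, beside 17.7% of all tested genes. Itga5 (-1.81), Itgb1 (-1.71, also on the partner list), Pigk (-1.75), Cpq (-1.74) and Eogt (-1.17) fell. Rab35 and Pip5k1a, whose proteins take part in migrasome formation, averaged 317 and 164 in migrasome and 395 and 206 in cytosol without passing. Ndst1, a Golgi enzyme of heparan sulfate synthesis, gave 540 and 1099 in migrasome, against 1019 and 933 in cytosol, with overlapping groups and no call (limma adjusted p = 0.412). The sphingomyelin synthase gene Sgms2 gave 79.2 and 239.5 in migrasome, against 268 and 331 in cytosol, with replicate 2 of migrasome close to cytosol, and did not pass either.

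**Figure D4:**
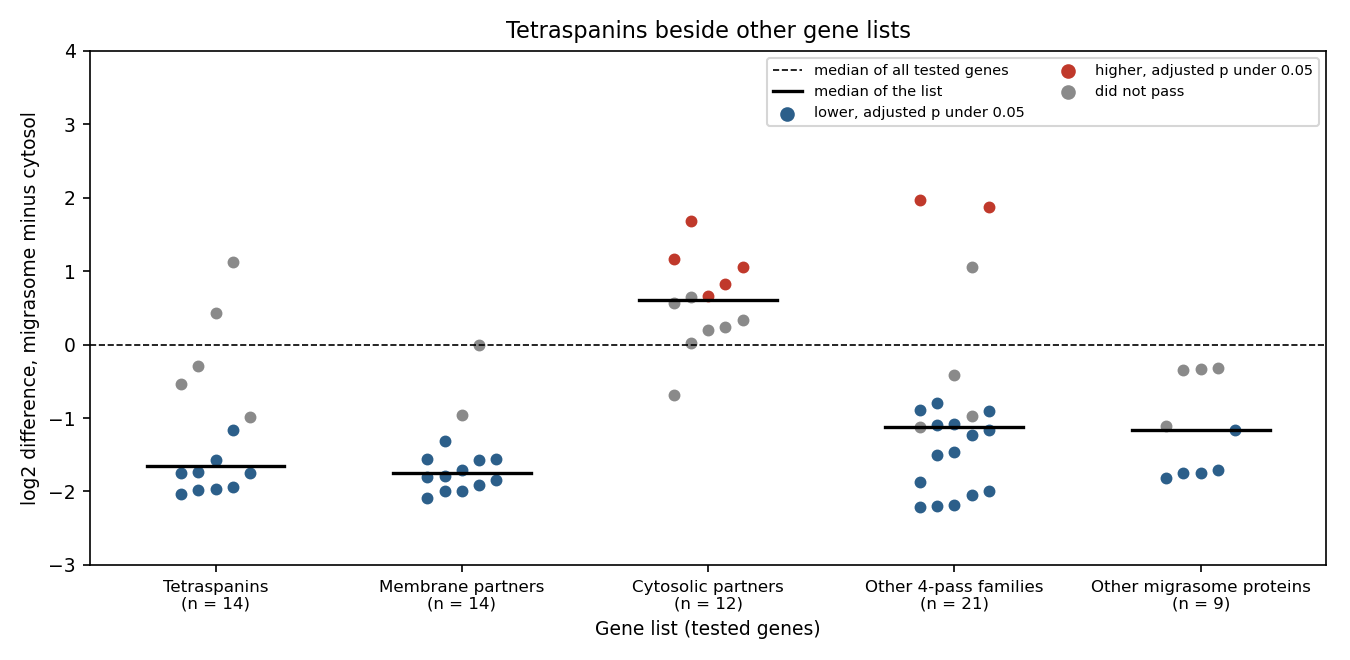
Log2 difference, migrasome minus cytosol, of each tested gene in 5 lists, with a bar at the list's median, a dashed line at the median of all tested genes, and colour for the limma call (blue lower, red higher, grey not passed). Tetraspanins (median -1.66), their membrane partners (-1.75) and other 4-pass families (-1.12) lie mostly below 0, and the cytosolic partners (0.61) mostly above.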

How the data were processed

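RNA of purified migrasomes and of cytosol was sequenced in 2 libraries each, grouped by their titles. Per the submitters' processing notes, the tools were cutadapt, Trimmomatic, FastQC, STAR, HTSeq and DESeq on GRCm38; versions, gene annotation, strand setting and the treatment of reads with several matches are unstated. The deposited signal per gene is a read count after the authors' division by a size factor for each library. All values were whole multiples of their library's smallest value (100% within 0.001), so whole reads were recovered. Neither replicate pair was 1 library deposited again (chi-square per degree of freedom 27.9 in migrasome, 17.6 in cytosol).

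Values were tested as log2(value + 1) with limma 3.58.1 (R 4.3.3, eBayes with a trend, no replicate block) over the 10860 genes that reached 10 in 2 or more libraries, and a Benjamini-Hochberg adjusted p under 0.05 was called. The test was tried on simulated data first. Alternatives were other pseudocounts, filters, scalings and variance models, edgeR 4.0.16 and DESeq2 1.42.0 on the recovered reads, a replicate block, and leaving out each library. Of the 28 symbols, 27 were found in GENCODE M21, which gave positions, exon lengths and coding sequences. Exon lengths merge all annotated exons of a gene. Coding sequences and GC content come from 1 transcript per gene, by APPRIS level, then the longest coding sequence. Every tetraspanin gene is named, by rule; from the other lists, tested partners and the most abundant gene of each 4-pass family. Lhfpl4, the other migrasome protein genes, the markers and the superfamily genes outside the naming scheme were named after their values were seen, as were the overlapping genes. The members and lists were chosen with earlier results of these data known. Figures were drawn with matplotlib 3.10.9.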

Additional observations from a re-analysis of the deposited data

How the results depend on the processing

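Under 14 alternatives the count of tetraspanin genes lower in migrasome stayed between 8 and 11, against 9, and was 8 to 11 over the settings without 1 library. The count of higher genes was 0 to 1 over those settings (Tspan7 without migrasome replicate 1; Tspan17, at 0.89, without migrasome replicate 2). It was also 1, always Tspan7, with quantile normalization, with eBayes without a trend and with the replicate block, where the lower count was 10. The numbers do not pair the libraries by any label, although deviations of same-numbered libraries correlated (0.226 over all tested genes, 0.692 over the tetraspanin genes); the block added Tspan15 as lower (adjusted p = 0.0278) and Tspan7 as higher (0.0470). Tspan32 turned to 0.099 with quantile normalization and Tspan17 to -0.037 without migrasome replicate 1, neither passing in either setting; the cause was not tested. Of 193 pairs of a gene and an alternative, 179 kept direction and call, 3 lost the call, 9 gained one and 2 changed sign. The log2 ratio of the summed values, -1.61, was -1.88 with the same total per library, -1.60 with quantile normalization, -1.61 with the replicate block and -1.64 to -1.58 without 1 library. Scaling to the same total moved the median of all tested genes to -0.27 and quantile normalization to 0.10; relative to it, the tetraspanin median was -1.65 and -1.39, against -1.65. Where a library was left out, the lone library of a fraction is assumed to vary like the others. Over all tested genes (1919 lower, 943 higher), the higher count was 322 with the same total per library, 483 without a trend, 393 with no filter beyond 1 library above 0 and 1802 with the replicate block. Cd82, Tspan15 and Tspan7 rest on 11 to 21 reads in each migrasome library.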
